A study of Mus musculus with 9 samples.

Results

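The tumor necrosis factor (TNF) superfamily is a set of cytokines and their receptors, and 41 of its genes were found among the 18272 genes measured in mouse tibia, 15 ligands and 26 receptors. Members were taken by symbol: every Tnfsf or Tnfrsf gene together with Tnf, Lta, Ltb, Ltbr, Fas, Fasl, Cd40, Cd40lg, Cd27, Ngfr, Eda, Edar, Eda2r and Relt, leaving out Tnfsf11, Tnfrsf11a and Tnfrsf11b, the RANKL system of osteoclast formation. Cd70 and Tnfsf4 were not analysed here. The leading results are on TRAIL (Tnfsf10), OX40 (Tnfrsf4), the ectodysplasin A2 receptor (Eda2r) and the TWEAK receptor Fn14 (Tnfrsf12a). In no comparison did a member pass the test across all genes.

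RNA-seq was done on 1 tibia library from each of 9 female C57BL/6J mice, 3 per group, bought at 10 to 11 weeks of age. Mice with normal glucose tolerance (NGT) received the citrate vehicle, and the study's methods name no later treatment for them. T1D mice received streptozotocin, a toxin of insulin-producing beta cells, and then saline, and Lira mice received streptozotocin and then liraglutide (0.6 mg/kg/day), a GLP-1 receptor agonist used against diabetes. The treatment lasted 8 weeks by the study's methods, and the label of Lira mouse 3 gives 9 weeks. Streptozotocin makes a chemical model of insulin deficiency without the autoimmune attack of the human disease, and no liraglutide-treated mice without streptozotocin were among the 9.

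TNF superfamily ligands are mostly made as membrane proteins with their cytokine part outside the cell, which assembles as a trimer and can be cut off in soluble form. They bind receptors with cysteine-rich repeats. A subset of receptors carries a death domain, which recruits adaptors such as TRADD and FADD and can lead to caspase activation, while the others bind TRAF proteins and signal mainly to NF-κB and the MAP kinases. In bone and marrow the family is known for the action of TNF on osteoclast precursors and osteoblasts, for B cell survival through BAFF and APRIL, and for T cell co-stimulation.

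Libraries held 13086373 to 16528394 counts, and values within a gene are given as CPM, the count scaled to the library size. A gene with 0 counts may have had up to 3, which is 0.163 to 0.237 CPM by library on the TMM scale used here. This limit covers counting error only. The label says that the bones were cleaned of muscle, and 6 skeletal muscle genes summed to 72207 to 200857 CPM, against 91.1 to 3584 CPM for 7 osteoblast and osteocyte genes, of which 3 were at 0 in at least 1 library. The summed marker lists of the cell types examined overlapped between the groups in every comparison. Single markers at an unadjusted p under 0.05 in edgeR were 4 of the 6 macrophage genes, 1 osteoclast gene and 1 Schwann cell gene, all higher in T1D than in NGT, and 2 Schwann cell genes, 1 macrophage gene and 1 plasma cell gene, all lower in Lira than in T1D. None of them was called. Neutrophil markers summed to 3.87 to 4965 CPM and erythroid markers to 390 to 29030 CPM over the libraries, both highest in Lira mouse 3. Libraries that stood apart included T1D mouse 1, with 767 CPM of macrophage markers against 27.4 to 113 CPM elsewhere, and Lira mouse 3, with 189 CPM of B cell markers against 0.541 to 64.9 CPM elsewhere. T1D mouse 2 held 946 CPM of Schwann cell markers against 51.9 to 262 CPM elsewhere, and T1D mouse 1 and Lira mouse 1 held 66.2 and 58.4 CPM of chondrocyte markers against at most 15.3 CPM elsewhere. In whole tibia, fewer cells of a type and less RNA per cell cannot be told apart.

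The start regions of 6 members are printed for orientation: those whose groups did not overlap in a comparison with T1D, and 3 that were highest in T1D mouse 1 or Lira mouse 3 and that held a searched motif. Each sequence runs from 250 bases before to 50 after the RefSeq gene start in build GRCm38.p6, and lower case carries no match. Capitals mark matches, on either strand, of NF-κB (searched by its 10-base consensus), AP-1 (TGANTCA), the interferon-stimulated response element (ISRE, GAAANNGAAA) or the p53 consensus decamer.
Tnfsf10 promoter (chr3:27316827-27317126, plus strand): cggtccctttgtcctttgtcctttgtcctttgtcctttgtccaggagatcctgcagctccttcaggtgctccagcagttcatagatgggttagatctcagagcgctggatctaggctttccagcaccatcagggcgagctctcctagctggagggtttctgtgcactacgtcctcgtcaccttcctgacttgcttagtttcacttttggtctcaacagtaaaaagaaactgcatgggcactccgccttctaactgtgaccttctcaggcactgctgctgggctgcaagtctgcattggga
Tnfrsf4 promoter (chr4:156013445-156013744, plus strand): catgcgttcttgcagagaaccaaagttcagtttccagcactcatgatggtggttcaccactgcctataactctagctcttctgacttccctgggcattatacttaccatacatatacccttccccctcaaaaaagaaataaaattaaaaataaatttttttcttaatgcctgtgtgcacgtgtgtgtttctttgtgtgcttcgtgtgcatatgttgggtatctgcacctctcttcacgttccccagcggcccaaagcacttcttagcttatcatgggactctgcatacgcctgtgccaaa
Eda2r promoter (chrX:97377160-97377459, minus strand): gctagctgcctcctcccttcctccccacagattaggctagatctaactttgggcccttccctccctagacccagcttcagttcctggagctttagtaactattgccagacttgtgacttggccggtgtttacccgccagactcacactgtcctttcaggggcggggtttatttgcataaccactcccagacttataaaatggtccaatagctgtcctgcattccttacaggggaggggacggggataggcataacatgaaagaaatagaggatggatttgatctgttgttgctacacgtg
Tnfrsf1b promoter (chr4:145246821-145247120, minus strand): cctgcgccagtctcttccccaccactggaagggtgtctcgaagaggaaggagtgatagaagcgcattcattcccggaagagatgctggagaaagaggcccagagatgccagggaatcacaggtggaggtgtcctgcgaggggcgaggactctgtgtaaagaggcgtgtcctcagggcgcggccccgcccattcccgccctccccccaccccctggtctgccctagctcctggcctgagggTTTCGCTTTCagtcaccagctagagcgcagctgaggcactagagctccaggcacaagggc
Tnfsf13b promoter (chr8:10006383-10006682, plus strand): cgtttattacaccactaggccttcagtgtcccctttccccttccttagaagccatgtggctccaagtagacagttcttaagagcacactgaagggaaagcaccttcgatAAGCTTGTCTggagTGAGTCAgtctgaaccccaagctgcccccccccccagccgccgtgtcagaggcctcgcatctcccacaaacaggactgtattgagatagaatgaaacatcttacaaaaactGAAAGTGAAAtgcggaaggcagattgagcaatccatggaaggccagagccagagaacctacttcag
Ltb promoter (chr17:35194257-35194556, plus strand): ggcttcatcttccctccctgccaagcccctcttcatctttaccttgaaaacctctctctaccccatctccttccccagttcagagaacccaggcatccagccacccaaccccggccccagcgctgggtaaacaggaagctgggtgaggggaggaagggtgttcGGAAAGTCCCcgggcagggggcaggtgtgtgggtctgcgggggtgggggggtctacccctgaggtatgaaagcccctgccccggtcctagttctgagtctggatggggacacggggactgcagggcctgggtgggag
The windows of Tnfsf10, Tnfrsf4 and Eda2r held no match of these 4 motifs. The capitals mark an ISRE in Tnfrsf1b and an NF-κB motif in Ltb. In Tnfsf13b, shown for 1 of its start sites, they mark the p53 decamer, AP-1 and ISRE in that order, and no matches overlapped. RefSeq start regions were at hand for 34 of the 41 members. These 34 genes had 38 start regions. NF-κB was found in 4 of the 38 and in 8.46% of all 32851 start regions, and AP-1 in 7 and 7.81%. ISRE was found in 4 and 3.44%, and the p53 decamer in 4 and 8.36%. By gene these were 4, 6, 4 and 3 of the 34. A match is a string of letters and does not show binding, and the absence of one covers only this window.

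Levels between genes were compared in FPKM, which is scaled for gene length. A minimum of 10 counts in 3 or more of the 9 libraries was required for testing. This was met by 31 members: 8 ligands, all 7 death domain receptors, all 3 genes of a decoy cluster, and 13 of the 16 other receptors. The decoy cluster is Tnfrsf22, Tnfrsf23 and Tnfrsf26, named here after the TRAIL decoy receptors that Tnfrsf22 and Tnfrsf23 encode. No member passed only through 1 group. The 10 members below this minimum were the ligands Tnfsf9, Lta, Tnfsf8, Fasl, Tnfsf15, Cd40lg and Tnfsf18 and the receptors Tnfrsf9, Tnfrsf17 and Tnfrsf8, whose mean over 9 libraries was 0.0033 to 0.423 FPKM, with a highest single value of 1.28 FPKM.

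**Figure D1:**
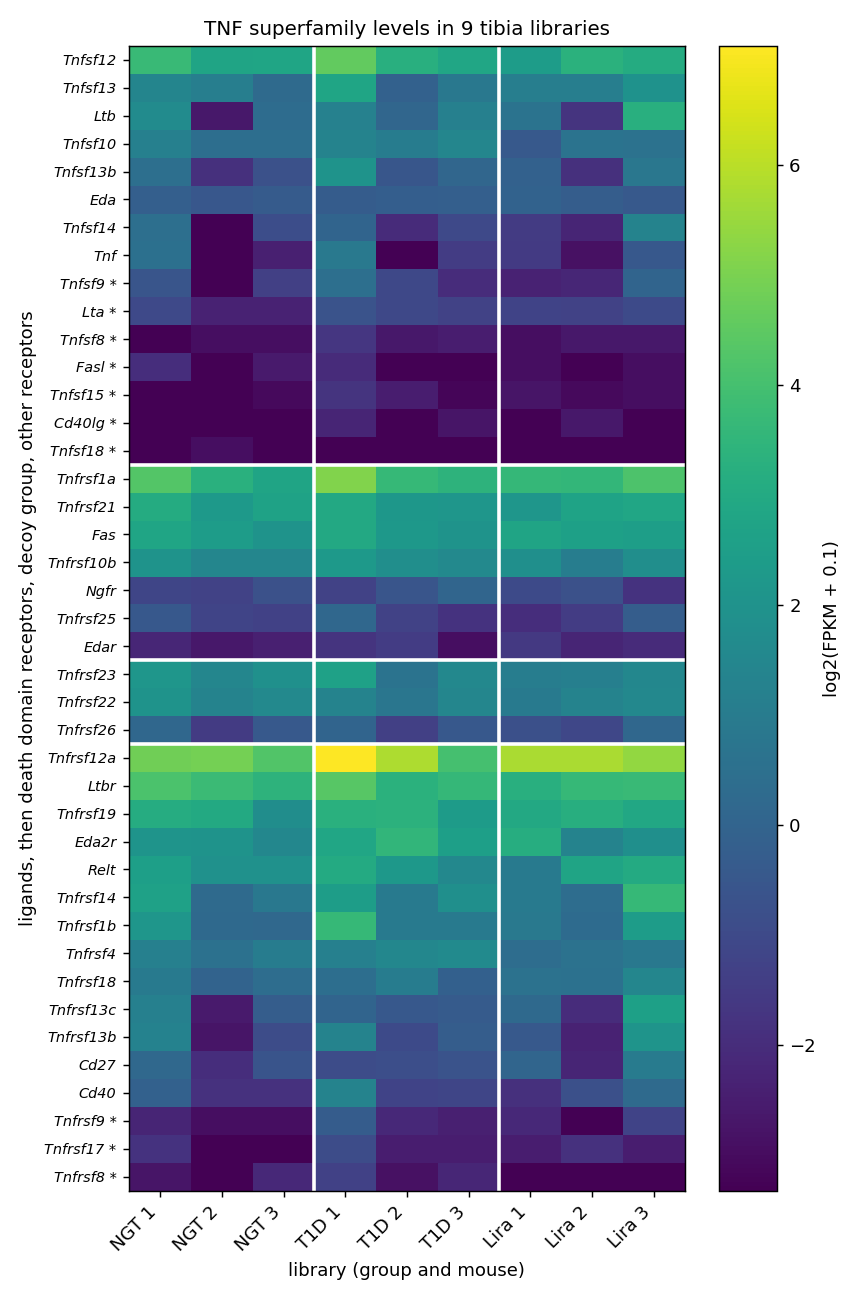
Levels of the 41 members in the 9 libraries, as log2(FPKM + 0.1) in colour, with rows ordered by role and mean level and an asterisk on the 10 members below the count minimum. Tnfrsf12a is the brightest row, and the columns of T1D mouse 1 and Lira mouse 3 are bright in many of the low rows.

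Among ligands, TWEAK (Tnfsf12), which acts on Fn14, had the highest mean level, 10.1 FPKM over the 9 libraries. It was followed by APRIL (Tnfsf13) at 2.56, lymphotoxin beta (Ltb) at 2.32 and TRAIL (Tnfsf10) at 1.70 FPKM, and these lay within the spread of each other: Ltb alone ranged from 0.06 to 9.37 FPKM. TNF itself averaged 0.487 FPKM and was listed at 0 in NGT mouse 2 and T1D mouse 2. Tnfsf12 made up 28.3 to 64.5% of the summed ligand FPKM of a library. The summed level of the ligands was 10.9 to 45.4 FPKM and that of the receptors 74.8 to 276 FPKM, both highest in T1D mouse 1.

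Among receptors, Fn14 (Tnfrsf12a), a small receptor induced in injured and growing tissue including muscle, led with 48.2 FPKM and made up 19.6 to 49.1% of the receptor sum. Tnfrsf1a, the widely expressed TNF receptor with a death domain, averaged 15.0 FPKM and Ltbr, the lymphotoxin beta receptor, 13.2 FPKM, and their ranges over the 9 libraries overlapped. Next came Tnfrsf19 (TROY) at 7.67, Tnfrsf21 (DR6) at 5.96 and Fas at 5.61 FPKM, again with overlapping ranges. The lowest tested member was Edar, the ectodysplasin A1 receptor of hair and tooth development, at 0.138 FPKM.

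The T1D and NGT groups were compared to ask how the tibia of diabetic mice differed from that of normal mice. On the higher side in T1D were 7 of 8 ligands, 4 of 8 without T1D mouse 1 and 7 of 8 without both mice numbered 1, against 52.1% of all genes. The members with the largest differences were Cd40, Tnfsf13b, Tnfrsf1b, Tnfrsf12a and Eda2r, each over 2-fold higher on average. None of these differences passed the test. A member was called with a Benjamini-Hochberg adjusted p under 0.05 in edgeR's quasi-likelihood test and a fold over 2: this held for 0 of the 31 members and 0% of the 13960 genes tested, and the lowest adjusted p of a member was 0.977. At an unadjusted p under 0.05 there were 0 members, against 3.95% of all genes, by edgeR. There were 2 by DESeq2, against 4.99% of all genes, and 1 by limma on log2(FPKM + 1), against 3.10%.

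In T1D, 21 of 31 members had a log2 fold change above 0, against 52.1% of all genes, and the median was 0.30 against 0.02 over all genes. Without T1D mouse 1 this was 14 of 31, with a median of -0.04, and with NGT mouse 1, its pair by number, left out too it was 22 of 31, with a median of 0.41. The 3 T1D mice all lay above the 3 NGT mice for 2 members, Tnfsf10 and Eda2r, a pattern found for 3.52% of all genes. In FPKM this held for Eda2r alone, and for 2.6% of all genes. No member had all T1D mice below the NGT mice, found for 5.08% of all genes. Mice numbered alike in NGT and T1D correlated in their deviations from the group means, at r = 0.593, 0.647 and 0.283. The study describes no pairing, and Lira mouse 3 and NGT mouse 1 correlated at 0.781, so the pairs are not established. With the number as a block and only these groups fitted, 5 members were at an unadjusted p under 0.05 in edgeR. Eda2r, Tnfrsf1b, Tnfrsf1a and Tnfsf13b were higher and Tnfrsf22 was lower. Of all genes, 1952 of the 13960, or 13.98%, were at that p. The lowest adjusted p of a member was then 0.232. Within the 3 pairs by number, T1D was higher in all 3 for 9 members, against 19.2% of all genes. It was lower in all 3 for 2 members, against 19.0%. The 9 were Tnfsf10, Tnfsf12, Tnfsf13b, Tnfrsf1a, Tnfrsf1b, Tnfrsf10b, Tnfrsf19, Eda2r and Cd40, and the 2 were Tnfrsf21 and Tnfrsf22.

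The Lira and T1D groups were compared to ask what liraglutide changed in diabetic mice. The clearest differences were lower levels of the ligand Tnfsf10 and the receptor Tnfrsf4 in Lira mice. Neither passed the test across all genes: 0 members and 0% of genes were called, and the lowest adjusted p of a member was 0.978 by edgeR. At an unadjusted p under 0.05 there were 2 members by edgeR, both lower, against 3.33% of all genes. There was 1 by DESeq2, against 4.44% of all genes, and 2 by limma on log2(FPKM + 1), against 2.07%. The same pair had all Lira mice below all T1D mice, found for 3.4% of genes, and 0 members had them all above, found for 3.74%. In FPKM the pair stayed below without overlap. Of the 31 members, 15 were higher in Lira, against 55.3% of all genes. This was 24 without T1D mouse 1 and 9 without Lira mouse 3.

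The Lira and NGT groups were compared to see where treated diabetic mice stood against normal mice. Receptors without a death domain were higher in Lira in 11 of 13 cases, but in 6 of 13 without Lira mouse 3. All 3 genes of the decoy cluster were on the lower side with or without that mouse (Tnfrsf26 at -0.04, SE 0.56). No member was called, as for 0% of all genes, and the lowest adjusted p of a member was 0.999 by edgeR. At an unadjusted p under 0.05 there were 0 members by edgeR, DESeq2 or limma, against 0.781% of all genes by edgeR. All Lira mice lay above all NGT mice for 3 members, Tnfrsf12a, Edar and Tnfrsf18, against 2.49% of genes. They lay below for 3 members, Tnfrsf22, Tnfrsf23 and Tnfrsf4, against 1.78% of genes. In FPKM, where TMM scaling is not applied, the groups of Tnfrsf12a alone did not overlap, against 1.11% of genes higher, and 0 members lay below, against 3.65%. In all, 19 of 31 members were higher in Lira, against 55.5% of all genes, and 12 were without Lira mouse 3. Comparisons share mice: T1D stands in the first 2 and NGT in the first and this one, so that they are not independent.

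**Figure D2:**
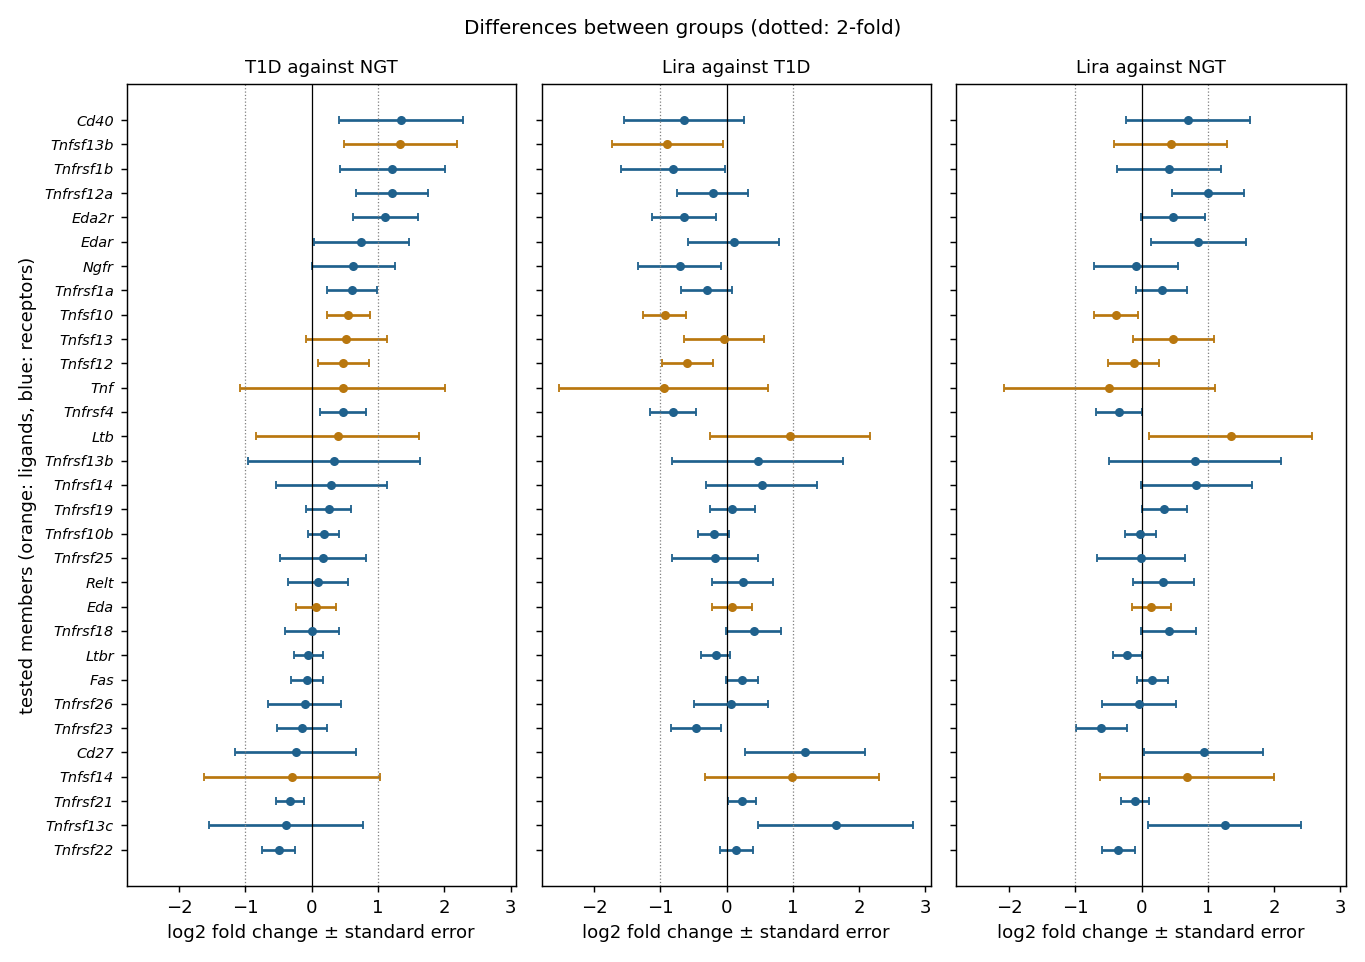
Log2 fold change of the 31 tested members with its standard error in the 3 comparisons, ligands in orange and receptors in blue, ordered by T1D against NGT, with dotted lines at a 2-fold difference. Most error bars are wide relative to the difference, and those of Tnf, Ltb, Tnfsf14, Tnfrsf13b and Tnfrsf13c are the widest.

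Tnfsf10 encodes TRAIL, a death-inducing ligand that is also a textbook target of interferons. In mice 1, 2 and 3 it was 9.07, 7.12 and 7.20 CPM in NGT, 9.73, 9.82 and 14.7 CPM in T1D, and 3.57, 8.10 and 6.26 CPM in Lira. Every T1D mouse was thus above every other mouse, and the Lira mice overlapped with NGT. Means were 7.80 ± 1.11, 11.4 ± 2.87 and 5.97 ± 2.28 CPM (SD, n = 3). The log2 fold change was 0.55 (SE 0.33, edgeR unadjusted p = 0.128) in T1D against NGT and -0.94 (SE 0.33, edgeR unadjusted p = 0.0202, adjusted p 0.978) in Lira against T1D. Leaving out 1 mouse at a time gave -1.21 to -0.67 for the latter, with p over 0.05 without T1D mouse 3 or Lira mouse 1. The exact permutation p was 0.1, the smallest that 3 against 3 mice allow. In FPKM, T1D mouse 2 at 1.95 was below NGT mouse 1 at 2.19, so that NGT and T1D overlapped on that scale.

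Tnfrsf10b, the TRAIL receptor of the mouse with a death domain, lay between 7.17 and 12.6 CPM in all 9 mice, and its largest log2 fold change was -0.20 (SE 0.23, Lira against T1D). The neighbouring genes Tnfrsf22 and Tnfrsf23 encode receptors that bind TRAIL without a death domain. Tnfrsf22 was 13.8, 11.5 and 13.5 CPM in NGT, 8.37, 6.81 and 12.3 CPM in T1D, and 8.64, 11.1 and 10.6 CPM in Lira. All Lira mice were below all NGT mice in CPM but not in FPKM, where Lira mouse 3 (2.82) was above NGT mouse 2 (2.44), while T1D mouse 3 fell within the NGT range. The log2 fold change was -0.50 (SE 0.25, edgeR unadjusted p = 0.0767) in T1D and -0.35 (SE 0.25) in Lira, both against NGT. Tnfrsf23 was 11.4, 9.36 and 13.5 CPM in NGT, 16.1, 4.91 and 9.94 CPM in T1D, and 6.99, 7.55 and 7.92 CPM in Lira. The Lira mice lay close together below NGT in CPM, though not in FPKM, and the T1D mice spanned both. These 2 genes and Tnfrsf26 are closely related neighbours with counts that are not whole numbers, so how their shared reads were divided is uncertain.

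Tnfrsf4 encodes OX40, a co-stimulatory receptor of activated T cells. It was 2.22, 1.93 and 2.69 CPM in NGT, 2.01, 3.40 and 4.07 CPM in T1D, and 1.64, 1.87 and 1.89 CPM in Lira. The Lira mice were below all the others, by a margin of 1.89 against 1.93 CPM to NGT that was lost in FPKM, and T1D mouse 1 lay within the NGT range. The log2 fold change in Lira against T1D was -0.81 (SE 0.35, edgeR unadjusted p = 0.0473, adjusted p 0.978), with a range of -1.05 to -0.58 when 1 mouse was left out at a time. Only without T1D mouse 1 did that unadjusted p stay under 0.05. The summed level of 8 T and NK cell markers did not follow the same order: it was 4.19 to 20.9 CPM in T1D and 2.26 to 31.7 CPM in Lira, highest in Lira mouse 3. Tnfrsf18 (GITR), a related receptor of regulatory T cells, was 1.78, 1.24 and 1.74 CPM in NGT, 1.14, 2.49 and 1.13 CPM in T1D, and 1.93, 1.87 and 2.53 CPM in Lira. Its Lira mice were all above NGT by a narrow margin in CPM and overlapped in FPKM, with a log2 fold change of 0.41 (SE 0.42).

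Eda2r is the receptor of ectodysplasin A2, a textbook p53 target that is also expressed in skeletal muscle. It was 16.9, 22.3 and 15.4 CPM in NGT, 28.4, 57.6 and 32.1 CPM in T1D, and 46.7, 13.2 and 15.96 CPM in Lira. All T1D mice were above NGT, and Lira divided into mouse 1 within the T1D range and mice 2 and 3 at or below the NGT level. The log2 fold change was 1.11 (SE 0.49, edgeR unadjusted p = 0.0506) in T1D against NGT, from 18.2 ± 3.604 to 39.4 ± 15.9 CPM (SD, n = 3). Leaving out each mouse gave 0.73 to 1.30, and the edgeR model p, unadjusted, fell under 0.05 without T1D mouse 1. In a fit of NGT and T1D alone the edgeR unadjusted p was 0.00975, and 0.00107 with the replicate block (adjusted p 0.970 and 0.232). In Lira against T1D it was -0.64 (SE 0.49), which became -1.43 without Lira mouse 1, with an unadjusted p under 0.05 in edgeR. The ligand gene Eda, which also makes the A1 form bound by Edar, lay between 2.88 and 4.71 CPM and had no log2 fold change beyond 0.15 (SE 0.30, Lira against NGT). Edar was 0.381, 0.232 and 0.396 CPM in NGT and 0.928, 0.467 and 0.459 CPM in Lira, a handful of counts per library, and these groups overlapped in FPKM. The muscle marker sum of 72207 to 200857 CPM overlapped between all groups, as did the Schwann cell and chondrocyte sums. The Schwann cell sum was highest in T1D mouse 2, like Eda2r, but was 121 and 113 CPM in Lira mice 1 and 2. The chondrocyte sum was high in Lira mouse 1 (58.4 CPM), but highest in T1D mouse 1 (66.2 CPM), the T1D mouse with the lowest Eda2r. The part of these cells in the Eda2r difference was not tested.

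Tnfrsf12a was 22.1, 30.9 and 20.1 CPM in NGT, 101, 51.9 and 16.5 CPM in T1D, and 54.1, 57.1 and 35.1 CPM in Lira. The T1D mice ran from the lowest to the highest value of all 9, while all Lira mice were above NGT. Against NGT the log2 fold change was 1.21 (SE 0.54, edgeR unadjusted p = 0.0542) in T1D and 1.00 (SE 0.54, edgeR unadjusted p = 0.0992) in Lira. Without T1D mouse 1 the former was 0.49, without both mice numbered 1 it was 0.41, and without T1D mouse 3 it was 1.65. In a fit of NGT and Lira alone the edgeR unadjusted p of the latter was 0.00581 (adjusted p 0.9991). Its ligand Tnfsf12 was 18.6, 12.5 and 12.98 CPM in NGT, 32.7, 15.6 and 13.005 CPM in T1D, and 9.71, 18.2 and 12.7 CPM in Lira. Only T1D mouse 1 stood out, and without it the log2 fold change against NGT went from 0.48 (SE 0.38) to -0.04, or to 0.16 without NGT mouse 1 as well. Tnfsf12 and the neighbouring Tnfsf13 overlap a read-through gene and an antisense gene, and with no strand setting stated their reads cannot be fully told apart.

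**Figure D3:**
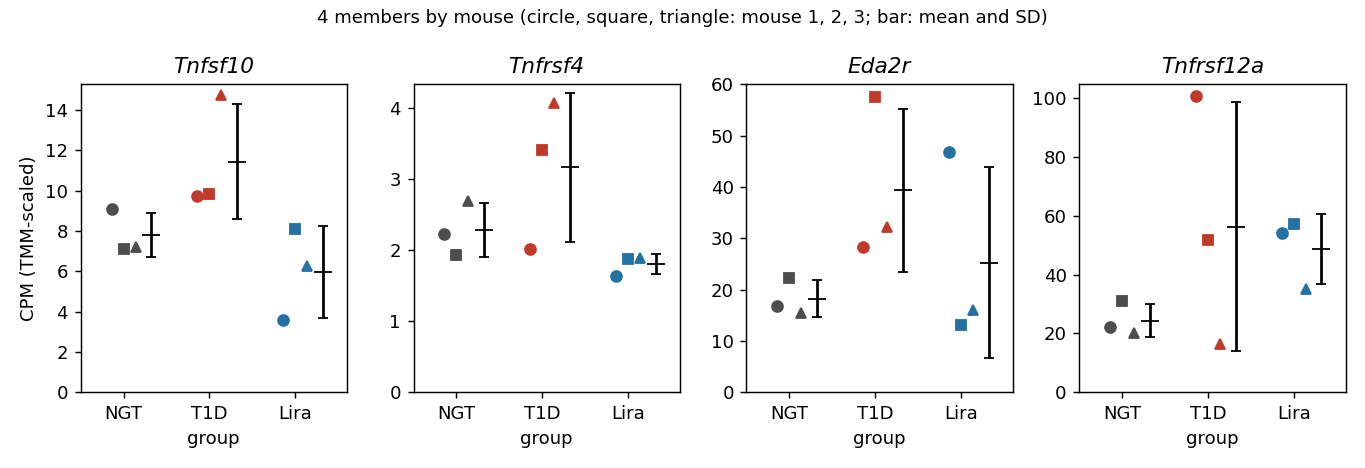
CPM by mouse for Tnfsf10, Tnfrsf4, Eda2r and Tnfrsf12a, with the mean and SD of the 3 mice of a group beside the points and the axes starting at 0. T1D lies above NGT without overlap for Tnfsf10 and Eda2r, Lira lies below T1D for Tnfsf10 and Tnfrsf4, and the T1D values of Tnfrsf12a run from 16.5 to 101 CPM.

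The TNF axis was led by its receptors. Tnf, the founding inflammatory ligand, was 1.84, 0 and 0.158 CPM in NGT, 2.34, 0 and 0.467 CPM in T1D, and 0.428, 0.0779 and 0.918 CPM in Lira. A count of 0 allows up to 0.232 CPM in NGT mouse 2 and 0.196 CPM in T1D mouse 2. Every group held both a high and a low mouse, and the log2 fold change of T1D against NGT was 0.47 (SE 1.55), turning to -1.52 without T1D mouse 1 and to 1.46 without both mice numbered 1. The coefficient of variation within NGT and T1D was 153% and 132%, so the groups differed by less than the spread between mice.

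Tnfrsf1a was 34.6, 23.0 and 16.1 CPM in NGT, 60.3, 26.9 and 25.2 CPM in T1D, and 28.4, 28.3 and 34.6 CPM in Lira. T1D mouse 1 was the highest and the groups overlapped, with a log2 fold change of 0.61 (SE 0.38) in T1D against NGT that was 0.08 without that mouse and 0.41 without NGT mouse 1 as well. With the replicate block in a fit of these groups it was 0.56 (SE 0.16, edgeR unadjusted p = 0.0157, adjusted p 0.264). Tnfrsf1b, the TNF receptor of leukocytes and endothelium, was 17.8, 5.88 and 5.78 CPM in NGT, 49.2, 9.36 and 10.2 CPM in T1D, and 9.49, 6.31 and 23.5 CPM in Lira. Within each group 1 mouse was over 2-fold above the lowest, and the log2 fold change of 1.22 (SE 0.80) in T1D against NGT was -0.01 without T1D mouse 1 and 0.74 without both mice numbered 1. T1D was higher in each of the 3 pairs, and with the replicate block in a fit of these groups the log2 fold change was 1.01 (SE 0.21, edgeR unadjusted p = 0.00422, adjusted p 0.232).

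Tnfsf13b (BAFF), the survival factor of B cells made largely by myeloid cells, was 1.84, 0.387 and 1.03 CPM in NGT, 5.44, 1.05 and 1.80 CPM in T1D, and 1.57, 0.389 and 2.47 CPM in Lira. Its relative Tnfsf13 (APRIL), which acts on plasma cells, was 3.55, 3.87 and 2.14 CPM in NGT, 9.19, 1.44 and 3.07 CPM in T1D, and 3.78, 3.89 and 5.68 CPM in Lira. Cd40, an activating receptor of B cells and macrophages, was 1.08, 0.309 and 0.317 CPM in NGT, 3.26, 0.524 and 0.6002 CPM in T1D, and 0.285, 0.857 and 1.66 CPM in Lira. All 3 were highest in T1D mouse 1 and overlapped between groups. In T1D against NGT their log2 fold changes were 1.34 (SE 0.85), 0.52 (SE 0.61) and 1.34 (SE 0.94), and without that mouse they were 0.38, -0.50 and -0.04. Without NGT mouse 1 as well, they were 0.99, -0.42 and 0.82. Tnfsf13b and Cd40 were higher in T1D in each of the 3 pairs, and Tnfsf13 was not.

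Receptors of lymphocytes showed a different order. Tnfrsf13c, the BAFF receptor of mature B cells, was 3.55, 0.155 and 1.58 CPM in NGT, 1.41, 1.18 and 1.47 CPM in T1D, and 2.21, 0.312 and 10.2 CPM in Lira. Tnfrsf13b (TACI), a second BAFF and APRIL receptor, was 5.01, 0.155 and 1.27 CPM in NGT, 5.001, 1.05 and 2.13 CPM in T1D, and 1.78, 0.234 and 9.30 CPM in Lira. In both genes the NGT and the Lira values each spanned the whole T1D range, with NGT mouse 2 the lowest and Lira mouse 3 the highest of all 9. The log2 fold change in Lira against T1D was 1.64 (SE 1.17) for Tnfrsf13c, and -0.09 without Lira mouse 3.

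Ltb, made by lymphocytes, was 2.79, 0.0773 and 1.42 CPM in NGT, 1.96, 1.05 and 2.67 CPM in T1D, and 1.71, 0.234 and 9.01 CPM in Lira. Lira mouse 3 was again the highest and NGT mouse 2 the lowest, and without Lira mouse 3 the log2 fold change in Lira against NGT went from 1.34 (SE 1.23) to -0.55. Its receptor Ltbr, which stromal and myeloid cells carry, was 30.1, 31.6 and 24.9 CPM in NGT, 35.1, 20.9 and 27.7 CPM in T1D, and 21.4, 28.7 and 24.6 CPM in Lira. It varied far less, and its log2 fold changes were -0.21 to -0.05 with SE 0.22. Cd27, a receptor of T and memory B cells, Tnfrsf14 (HVEM) and the HVEM ligand Tnfsf14 (LIGHT) were also highest in Lira mouse 3, at 2.81, 19.8 and 4.08 CPM. In the other 8 mice they lay at up to 1.57, 8.76 and 2.03 CPM.

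The levels of B cell markers ran beside these genes. The sum of 6 B cell markers was 64.9, 0.541 and 18.0 CPM in NGT, 25.0, 21.3 and 21.9 CPM in T1D, and 31.1, 5.06 and 189 CPM in Lira, and 3 of the 6 were at 0 in at least 1 library. The lowest and the highest library were NGT mouse 2 and Lira mouse 3, as for Tnfrsf13c, Tnfrsf13b and Ltb. The same libraries were lowest and highest for T and NK cell (1.16 and 31.7 CPM), neutrophil (3.87 and 4965 CPM) and erythroid markers (390 and 29030 CPM). The sum of 6 macrophage markers was 102, 27.4 and 39.5 CPM in NGT, 767, 70.4 and 86.6 CPM in T1D, and 71.3, 72.4 and 113 CPM in Lira, and none of the 6 was at 0 in a library. T1D mouse 1 was the highest, as for Tnfrsf1b, Cd40, Tnfsf13b and Tnfsf13. It also held the most osteoblast and osteocyte markers (3584 CPM) and the least muscle markers (72207 CPM). The part of these cell types in the members' levels was not tested.

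**Figure D4:**
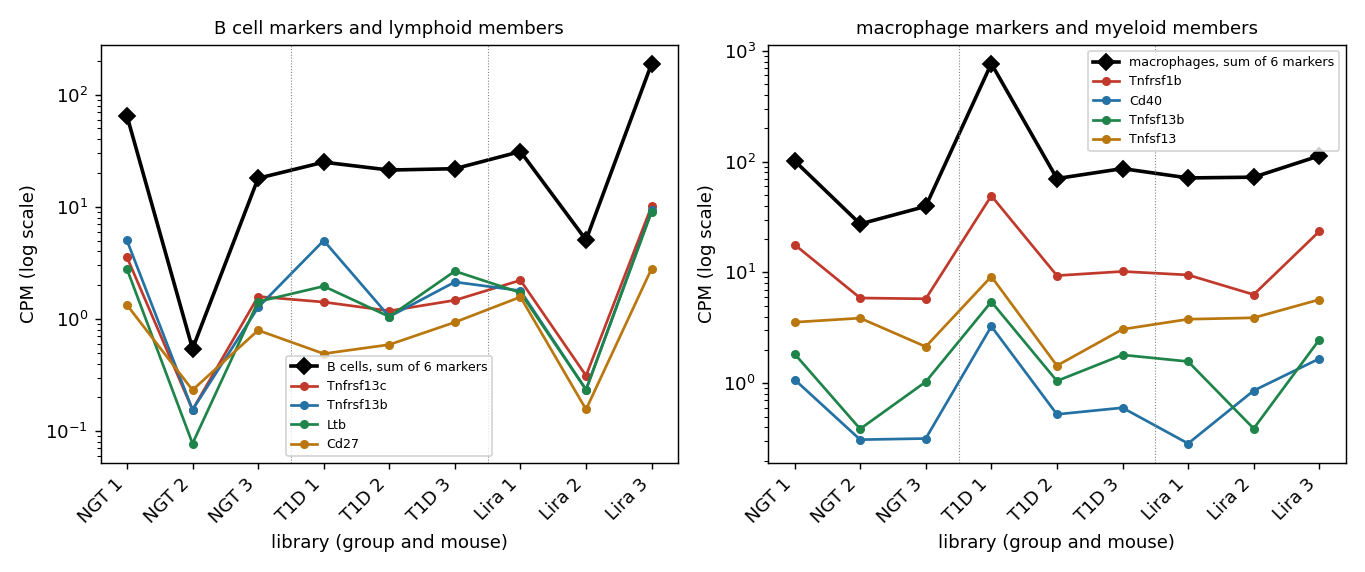
CPM on a log axis in the 9 libraries: on the left the summed B cell markers with Tnfrsf13c, Tnfrsf13b, Ltb and Cd27, on the right the summed macrophage markers with Tnfrsf1b, Cd40, Tnfsf13b and Tnfsf13; the lines only join libraries for reading. On the left the lines dip at NGT mouse 2 and Lira mouse 2 and peak at Lira mouse 3, and on the right they peak at T1D mouse 1.

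The spread between mice of a group was larger in the family than over all genes, without matching for level. A mean count of at least 50 was reached by 17 of the 31 members, and by 11345 genes where 13960 were tested. The part of low counts in this spread was not tested. The median of the within-group coefficient of variation was 38.2% over the 31 members and 22.4% over all genes tested. In 25 members, 80.6%, the highest mouse of some group was over 2-fold above the lowest, against 45.7% of all genes. Group means differed by over 2-fold in 8 members, 25.8%, against 12.2% of all genes. Of the 31 members, 12 (38.7%) were highest in T1D mouse 1, against 20.7% of all genes, and 8 (25.8%) in Lira mouse 3, against 19.9% of all genes. No member was highest in NGT mouse 2 or mouse 3, which held the highest value of 9.95% and 10.03% of all genes.

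Among the steadier receptors, Tnfrsf19, a receptor of progenitor cells, was 29.95, 37.1 and 15.8 CPM in NGT, 31.9, 43.5 and 23.5 CPM in T1D, and 35.8, 41.7 and 27.6 CPM in Lira. Mouse 2 was the highest of each group and the groups overlapped. Tnfrsf21, a death domain receptor of neurons and immune cells, was 25.3, 19.7 and 25.6 CPM in NGT, 22.6, 16.2 and 17.7 CPM in T1D, and 17.3, 25.9 and 23.0 CPM in Lira, with a log2 fold change of -0.32 (SE 0.21) in T1D against NGT. Fas, the receptor of Fas ligand, was 8.06, 8.66 and 6.65 CPM in NGT, 9.08, 6.74 and 6.40 CPM in T1D, and 10.1, 8.72 and 7.35 CPM in Lira. Its groups overlapped in every comparison, with log2 fold changes of -0.07 to 0.24 and SE 0.24.

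By role, the death domain receptors had log2 fold changes of -0.32 to 0.75 in T1D against NGT (median 0.18, 5 of 7 higher), -0.71 to 0.24 in Lira against T1D (median -0.18, 3 of 7 higher) and -0.09 to 0.86 in Lira against NGT. The decoy cluster had -0.50 to -0.11 in T1D against NGT, with all 3 genes on the lower side, Tnfrsf26 at -0.11 (SE 0.56). Receptors without a death domain had -0.39 to 1.34 in T1D against NGT (median 0.30, 9 of 13 higher) and -0.81 to 1.64 in Lira against T1D (median 0.09, 7 of 13 higher). Ligands had -0.30 to 1.34 in T1D against NGT (median 0.47) and -0.95 to 0.99 in Lira against T1D (median -0.32, 3 of 8 higher). Of all genes, 52.1% were higher in T1D against NGT and 55.3% in Lira against T1D. The role values moved with single mice. In T1D against NGT without T1D mouse 1, death domain receptors were 4 of 7 higher (median 0.08) and ligands 4 of 8 (0.09). Receptors without a death domain were 6 of 13 (-0.01). Without NGT mouse 1 as well, these roles in turn were at 4 of 7 (0.14), 7 of 8 (0.47) and 11 of 13 (0.59). In Lira against T1D without T1D mouse 1 they were at 5 of 7, 5 of 8 and 11 of 13. Without Lira mouse 3 instead, they were at 3 of 7, 1 of 8 and 4 of 13. Members not named singly for their values were Ngfr, Relt, Tnfrsf25 and Tnfrsf26, with log2 fold changes between -0.71 and 0.63 over the 3 comparisons.

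The genes that carry the signal inside the cell were read from a list of 34 adaptors, kinases, caspases and ubiquitin regulators, of which 33 were tested. None was called in any comparison by edgeR, as for 0% of all genes. At an unadjusted p under 0.05 in edgeR, 2 of 33 were higher in T1D than in NGT against 3.95% of all genes, 0 differed between Lira and T1D against 3.33%, and 2 were higher in Lira than in NGT against 0.781%. In T1D these were Otulin, a deubiquitinase of linear ubiquitin chains, and Traf1, an NF-κB target and TRAF adaptor.

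Otulin was 15.8, 17.9 and 13.5 CPM in NGT, 28.0, 27.0 and 18.6 CPM in T1D, and 22.2, 22.5 and 21.5 CPM in Lira. All T1D and all Lira mice were above all NGT mice in CPM, the former overlapping in FPKM, with log2 fold changes of 0.64 (edgeR unadjusted p = 0.0101) and 0.49 (edgeR unadjusted p = 0.035). Traf1 was 1.21, 0.387 and 0.792 CPM in NGT and 7.28, 1.83 and 1.20 CPM in T1D, with a log2 fold change of 2.10 (edgeR unadjusted p = 0.0299). Its T1D value was led by mouse 1, and T1D mouse 3 lay just below NGT mouse 1. Tank, a TRAF-binding adaptor, was 24.1, 24.4 and 26.4 CPM in NGT and 30.7, 31.5 and 29.4 CPM in Lira, with a log2 fold change of 0.29 (edgeR unadjusted p = 0.0482) and no overlap in CPM, though in FPKM they overlapped. In T1D against NGT 21 of the 33 were higher, against 52.1% of all genes. Without T1D mouse 1 there were 17, and without both mice numbered 1 there were 21. In Lira against T1D 19 were higher, against 55.3% of all genes, 23 without T1D mouse 1 and 11 without Lira mouse 3. In Lira against NGT 25 were higher, against 55.5% of all genes, and 14 without Lira mouse 3.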

How the data were processed

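Total RNA of 9 tibias (3 NGT, 3 T1D, 3 Lira) was enriched for mRNA with oligo(dT) beads and sequenced. Clean reads were aligned by the authors to the mouse genome (mm 9 by the submitters' processing notes), and they deposited expected counts per gene, not normalized, and FPKM values, scaled by the authors for gene length and library total. The aligner, counting tool, annotation and strand setting are not given in the sources used here. Of the deposited expected counts 30.2% were not whole (17 members are affected), and they were rounded. Gene positions come only from the RefSeq start regions of GRCm38.p6. The deposited group means were not used.

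Counts were analysed with edgeR 4.0.16 in R 4.3.3 (TMM, quasi-likelihood test, model of 3 group means over 9 libraries), on the 13960 of 18272 genes that reached 10 counts in 3 or more libraries. P-values were adjusted over all genes tested. CPM were TMM-scaled, and values are mean ± SD of mice. Single members were also compared by two-sided exact permutation tests (smallest p 0.1). The procedure was also run on simulated counts with large planted changes. That does not show what it finds among differences of the size reported for the members. Alternatives were DESeq2 1.42.0, library totals, other filters, fits of 2 groups, the replicate number as a block, edgeR's robust option, limma 3.58.1 on log2(FPKM + 1) or log2(FPKM + 0.1), and leaving out each mouse. Leaving out NGT and T1D mouse 1 together was added after seeing the data.

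As a check of pairing, same-numbered NGT and T1D mice correlated at r = 0.593, 0.647 and 0.283 across genes in their deviations from the group means, each over 0.1, and their numbers were taken to pair them. T1D and Lira mice (-0.273, 0.615, 0.260) and NGT and Lira mice (-0.250, 0.721, -0.0745) were not. Unlike numbers in NGT and T1D gave -0.705 to 0.160, and Lira mouse 3 with NGT mouse 1 gave 0.781. The study describes no pairing, so the block stayed an alternative.

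Members and lists were chosen with earlier results of these data known. Named with every mouse were members that were called, had an unadjusted p under 0.05, did not overlap in a comparison with T1D, were among the 4 ligands or 6 receptors of highest mean FPKM, and Tnf, 13 in all. Pathway genes at an unadjusted p under 0.05 were named, at most 6. Tnfrsf1b, Tnfsf13b, Cd40, Tnfrsf13b, Tnfrsf13c, Cd27, Tnfrsf14, Tnfsf14, Tnfrsf10b, Tnfrsf18, Tnfrsf22, Tnfrsf23, Eda and Edar were named after their values were seen.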

Additional observations from a re-analysis of the deposited data

How the results depend on the processing

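No member was called in any comparison under any of the 21 settings. Over all 31 members, 133 of 1570 recomputed log2 fold changes changed sign, 84 of them on leaving out 1 mouse, which turned 58 of the 93 log2 fold changes at least once. Among 23 log2 fold changes of 12 members followed singly, 12 values reversed, 10 of them on leaving out 1 mouse. With a mean count of at least 50, 17 members were tested, and 12, 7 and 10 were higher in T1D against NGT, Lira against T1D and Lira against NGT, fewer because fewer were tested. Leaving out 1 mouse gave 14 to 26, 9 to 24 and 12 to 24. With library totals in place of TMM, 24, 11 and 19 were higher, while the share of all genes that were higher moved from 52.1, 55.3 and 55.5% to 62.0, 43.8 and 53.2%. Leaving out NGT and T1D mouse 1 together (added after the data were seen) gave 22 higher in T1D against NGT. The log2 fold change of Tnfrsf12a in Lira against T1D reversed to 0.11 with the replicate block in a fit of 2 groups and to 0.001 with limma on log2(FPKM + 0.1), and ran from -0.65 to 0.51 when 1 mouse was left out (the cause was not tested). Among those followed singly, these also reversed on leaving out 1 mouse. Eda2r in Lira against NGT ran from -0.32 to 0.78, Tnfsf12 in T1D against NGT from -0.036 to 0.72, and Tnfrsf1a in Lira against T1D from -0.52 to 0.22. Tnf ran from -1.52 to 3.46 in T1D against NGT and from -1.85 to 1.03 in Lira against T1D. In T1D against NGT, Tnfrsf1b ran from -0.01 to 1.98 and Cd40 from -0.036 to 2.20, and in Lira against T1D Tnfrsf13c ran from -0.094 to 2.19. With the replicate block, 0 members were called, 24, 15 and 23 were higher, and the log2 fold change of Tnfsf10 in Lira against T1D was -0.95. DESeq2 gave the members no adjusted p in T1D against NGT. Tnf had 0 to 43 counts per library, so that its values rest on few reads.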
